A study of Homo sapiens with 12 samples.

Results

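HLTF, a SWI/SNF-related DNA translocase and ubiquitin ligase, was described together with 8 other genes of DNA damage tolerance: SHPRH, RAD18, UBE2N, SMARCAL1, ZRANB3, REV1, REV3L and POLK. The 9 genes were chosen by name, HLTF because its large difference within DLD1 was already known, and they are 9 of the 18377 genes measured. Each was read by 1 transcript cluster, the array's set of probes for a gene, and all 9 had means over the 12 arrays above the 40th percentile of all genes (7.57 on the log2 scale), HLTF through 3 of its groups, since its mean in DLD1 wild-type-only cells was 6.52.

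DNA damage tolerance lets a replication fork pass a damaged template before the damage is repaired. RAD18, with the conjugating enzymes UBE2A and UBE2B, attaches a single ubiquitin to the sliding clamp PCNA, which recruits translesion polymerases such as POLK, REV1 and polymerase zeta, whose catalytic subunit is REV3L. HLTF or SHPRH, with UBE2N and its partner UBE2V2, extend that mark into a chain that favours template switching, and HLTF, SMARCAL1 and ZRANB3 also remodel stalled forks into reversed forks. HLTF is known as a gene whose promoter is often methylated in colorectal cancers.

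HCT116 and DLD1 are human colorectal cancer cell lines, whose parental cells carry 1 mutant and 1 wild-type allele of a catalytic subunit of PI3K, a lipid kinase upstream of AKT. Targeted derivatives keep a single kind of allele. HCT116 mutant-only cells keep the H1047R allele and lack the wild-type allele, HCT116 wild-type-only cells lack the H1047R allele, DLD1 mutant-only cells keep the E545K allele and lack the wild-type allele, and DLD1 wild-type-only cells lack the E545K allele. All 4 groups were starved for 19 h in McCoy's medium with 0.5% serum, and each group had 3 Affymetrix gene arrays.

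The labels call the 3 arrays of a group biological replicates but do not state separate cultures, so p-values measure the spread between these arrays, which may be technical. Each genotype is labelled as 1 derived line, and the labels do not say whether that line is 1 clone. A difference between derived lines and a difference of genotype therefore cannot be told apart. Array medians lay between 7.42 and 7.53, and pairs of arrays correlated by 0.9952 to 0.9983 inside a group and by 0.9519 to 0.9633 between lines, over all transcript clusters. The labelled epithelial origin was checked with 11 measured markers, whose median group level was 10.96 to 12.17, with KRT8 the highest marker in every group and VIL1 the lowest (6.51 to 6.99). Fibroblast markers lay between 4.90 and 8.76, leukocyte markers between 5.01 and 7.13 and endothelial markers between 5.64 and 6.84 in group means.

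The level of HLTF differed between the derivatives of DLD1 by 2.90 on the log2 scale (SE 0.0919), or 7.45-fold, with the higher level in mutant-only cells. The 3 DLD1 mutant-only arrays had log2 levels of 9.32, 9.30 and 9.62, against 6.43, 6.43 and 6.69 in DLD1 wild-type-only arrays. The groups were separated by more than 2 log2 units on every array, and array 3 was the highest of its group in both. Same-numbered arrays differed by 2.89, 2.87 and 2.93. In HCT116 the mutant-only arrays had 10.65, 10.78 and 10.71 and the wild-type-only arrays 10.61, 10.61 and 10.74. These 2 groups overlapped.

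In order of level HLTF stood at 10.72 ± 0.07 in HCT116 mutant-only, 10.65 ± 0.08 in HCT116 wild-type-only, 9.41 ± 0.18 in DLD1 mutant-only and 6.52 ± 0.15 in DLD1 wild-type-only cells (SD, n = 3 each). Only the first pair of neighbours in that order differed by less than the spread between arrays. Among all 18377 genes the difference in DLD1 was the highest of the positive ones and ranked 2 by size in either direction. This contrast was the one that brought HLTF to attention, so its value is a description and no test is given. The authors' deposited table for DLD1, which lists 44 clusters, gives HLTF the same fold of 7.45, higher in mutant-only cells. Its group values are the group means used here, so that fold is no separate measurement. None of the other 8 genes is in that table, and none of the 9 is among the 35 clusters of the authors' deposited table for HCT116. Both list only folds of at least 2, which no other difference of the 9 genes within a line reached. A lower level in a bulk sample can come from fewer cells with the transcript or from less of it per cell, which cannot be told apart. The wild-type-only DLD1 level lay within the range of the leukocyte markers. No detection call was used, so it is not known how far that level lay above background.

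**Figure D1:**
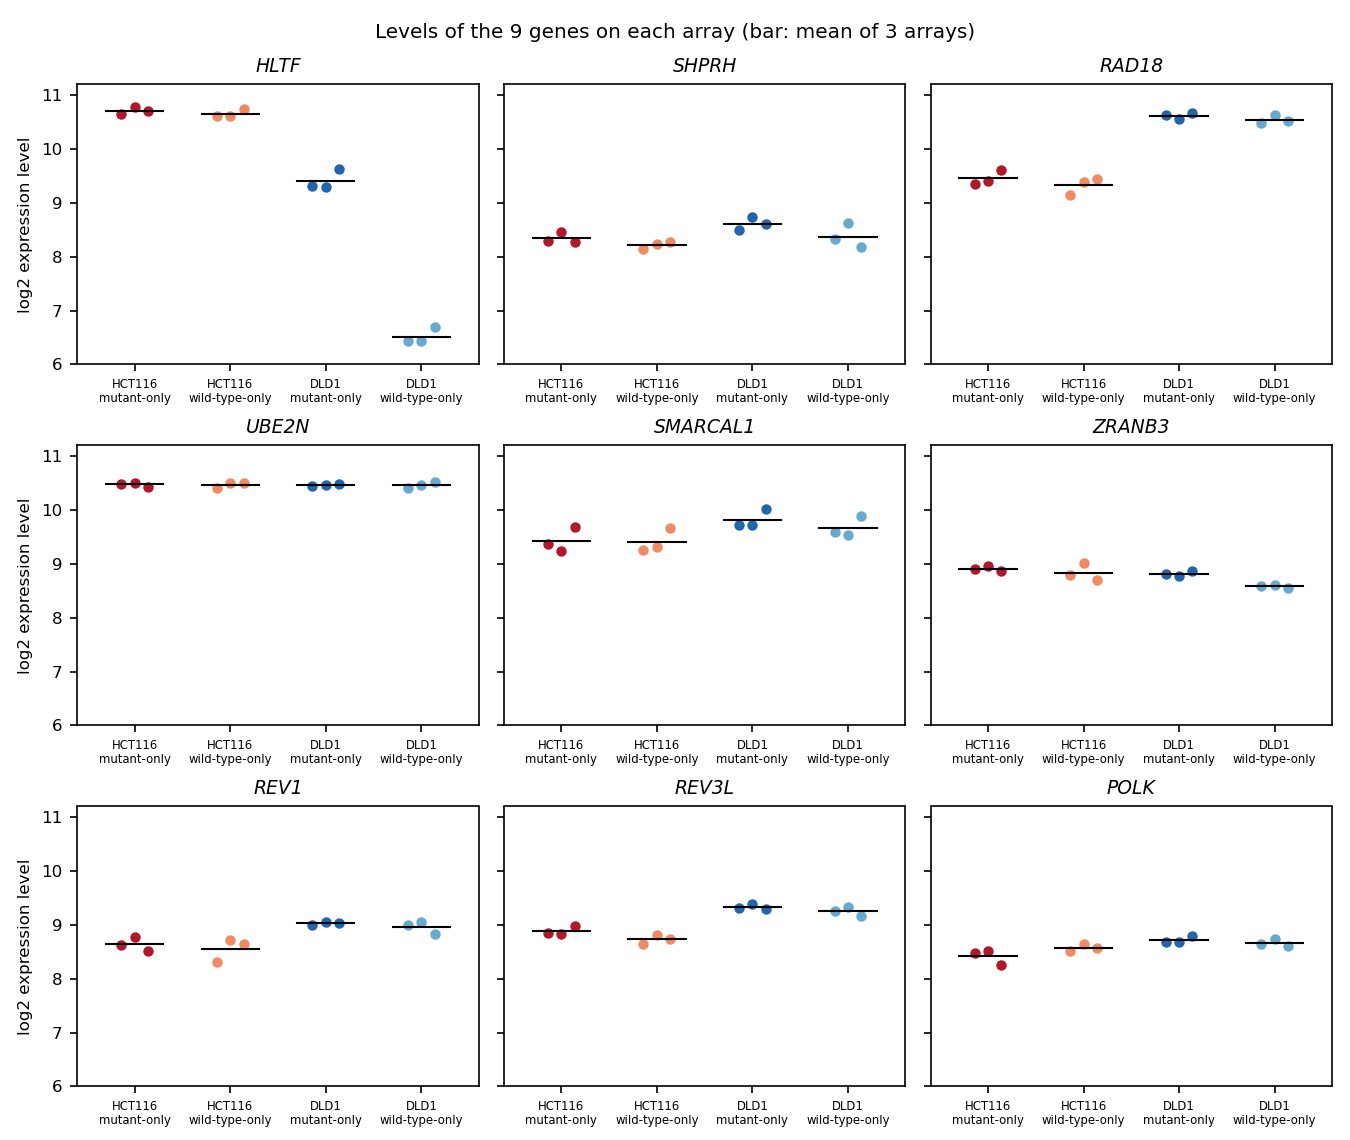
Log2 expression level (vertical axis, the same scale in all panels) of each of the 9 genes on the 12 arrays, in HCT116 mutant-only, HCT116 wild-type-only, DLD1 mutant-only and DLD1 wild-type-only cells. Points are arrays in the order of replicates 1 to 3 and bars are means. HLTF stands near 10.7 in both HCT116 groups, at 9.41 in DLD1 mutant-only and at 6.52 in DLD1 wild-type-only cells, while RAD18 is higher in both DLD1 groups than in both HCT116 groups.

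The promoters of 3 genes are shown because their levels set the cell groups apart: HLTF, SH3BGRL, whose levels followed those of HLTF most closely (within 0.407 on the log2 scale on every array, each gene centred on its mean), and RAD18, which differed between the lines in the opposite direction. Each sequence is the 250 bases before the RefSeq gene start on GRCh38.p14, written 5′ to 3′ on the gene's own strand, with every CG in capitals, the dinucleotide at which mammalian DNA is methylated. HLTF lies at chr3:149086534-149086783 (minus strand), SH3BGRL at chrX:81201852-81202101 (plus strand) and RAD18 at chr3:8963473-8963722 (minus strand). Methylation was not measured.
HLTF: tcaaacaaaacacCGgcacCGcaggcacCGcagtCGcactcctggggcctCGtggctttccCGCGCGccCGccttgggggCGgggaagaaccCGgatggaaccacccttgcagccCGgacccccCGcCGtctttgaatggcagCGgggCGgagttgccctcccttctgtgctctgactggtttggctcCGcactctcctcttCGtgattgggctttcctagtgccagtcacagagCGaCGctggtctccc
SH3BGRL: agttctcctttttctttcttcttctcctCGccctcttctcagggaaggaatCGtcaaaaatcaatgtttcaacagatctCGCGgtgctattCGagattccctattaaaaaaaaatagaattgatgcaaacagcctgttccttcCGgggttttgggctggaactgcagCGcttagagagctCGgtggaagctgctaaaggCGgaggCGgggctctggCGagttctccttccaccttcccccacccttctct
RAD18: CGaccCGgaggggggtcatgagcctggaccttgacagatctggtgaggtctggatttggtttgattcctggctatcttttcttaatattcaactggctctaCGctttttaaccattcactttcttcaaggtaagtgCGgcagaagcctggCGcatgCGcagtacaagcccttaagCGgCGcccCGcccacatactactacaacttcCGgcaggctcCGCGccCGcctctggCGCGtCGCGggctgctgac

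The HLTF window holds 20 CG and is 65.6% G or C, and 32.4% of 35116 RefSeq promoters of that length hold at least as many CG. The RAD18 window holds 17 CG and the SH3BGRL window 11, which is the median of all promoters. Among the 9 genes the count ran from 13 in ZRANB3 to 42 in REV1. Motifs were searched on both strands. The GC box GGGCGG occurs in the windows of all 9 genes and in 42.6% of all promoters, 2 times in HLTF and 0 times in SH3BGRL. CCAAT occurs in 2 of 9, HLTF and ZRANB3, against 32% of all promoters. The ETS motif CCGGAAG occurs in RAD18 and UBE2N (8.52% of all), and in SH3BGRL. The palindromic NRF1 motif occurs in 1 of the 9, RAD18 (1.03% of all), where it overlaps no other motif searched. The E2F forms TTTGGCGC and TTTCGCGC occur in none of the 9 windows, against 0.55% and 0.439% of all promoters.

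Within DLD1 the other 8 genes differed far less than HLTF. ZRANB3, a fork-remodelling translocase and nuclease, had 8.81, 8.77 and 8.86 in mutant-only arrays, against 8.59, 8.62 and 8.56 in wild-type-only arrays, a difference of 0.22 (SE 0.0702). Its groups did not overlap. HLTF and ZRANB3 were thus 2 of 9 genes without overlap, where 28.3% of all genes had none, and 8.77% of all genes passed an adjusted p of 0.05 in this comparison. The share among the 9 is below the background and nothing is read from it, since the genes were chosen with this comparison known.

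SHPRH, the other ubiquitin ligase that extends the chain on PCNA, had 8.50, 8.73 and 8.62 in DLD1 mutant-only arrays, against 8.33, 8.62 and 8.18 in wild-type-only arrays (difference 0.24, SE 0.0991). Wild-type-only replicate 2 reached the level of the mutant-only arrays, so the groups overlapped. SMARCAL1, an annealing helicase that binds RPA, had 9.72, 9.72 and 10.02, against 9.58, 9.54 and 9.88 (difference 0.15, SE 0.135). Array 3 was the highest for SMARCAL1 in all 4 groups, on average 0.23 above the group mean, which is more than the difference between genotypes. Both genotypes shared that shift, and same-numbered DLD1 arrays differed by 0.13, 0.18 and 0.13, though the labels do not say that the numbers pair.

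RAD18 averaged 10.62 ± 0.06 in DLD1 mutant-only and 10.55 ± 0.08 in DLD1 wild-type-only cells (SD, n = 3). The translesion polymerases differed by similar amounts: REV1 by 0.07, REV3L by 0.07 and POLK by 0.06, each with overlapping arrays. UBE2N, the conjugating enzyme for the chain, averaged 10.46 in both groups. Several of these values moved by more than 1.5 times when 1 DLD1 array was left out: SHPRH between 0.14 and 0.36, SMARCAL1 between 0.05 and 0.26, RAD18 between 0.04 and 0.12, REV1 between 0.01 and 0.11, REV3L between 0.03 and 0.12 and POLK between 0.03 and 0.10. The median difference of the 8 genes without HLTF was 0.07, beside -0.0072 for all genes. No p is given for any of the 9 in DLD1.

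**Figure D2:**
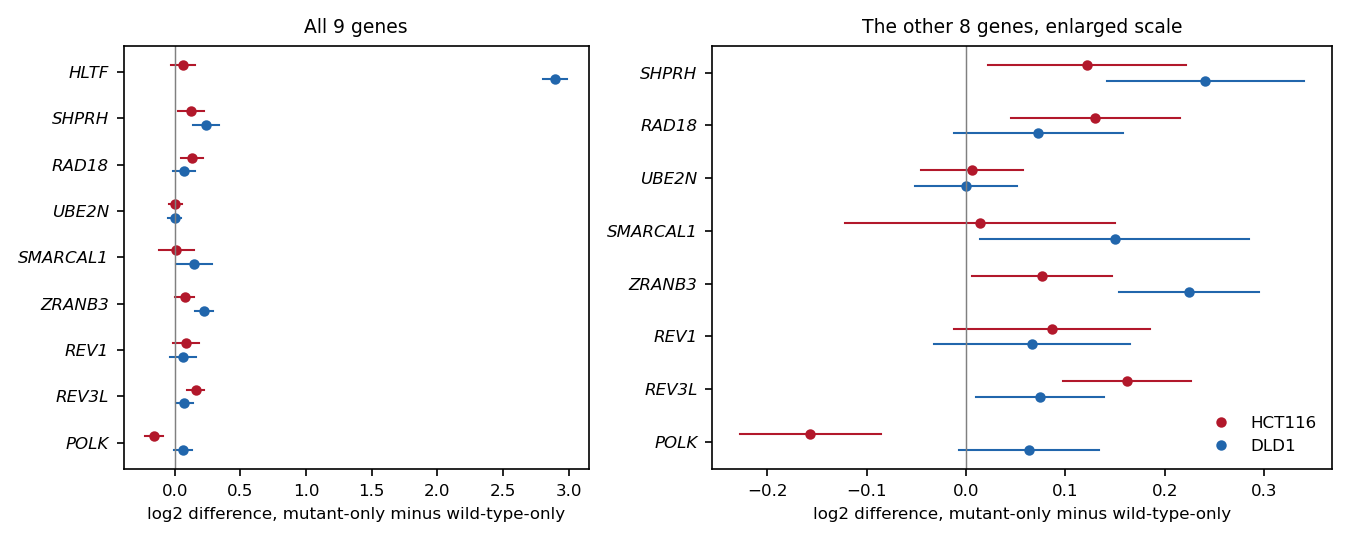
Differences in log2 level, mutant-only minus wild-type-only (horizontal axis), for the 9 genes on the left and for the 8 genes other than HLTF on an enlarged scale on the right. Points are differences, lines are plus and minus 1 SE of the limma fit, red is HCT116 and blue is DLD1. HLTF in DLD1 stands at 2.90, and every other value lies between -0.16 and 0.24.

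Within HCT116 none of the 9 genes passed the test. With limma's moderated test, adjusted by Benjamini-Hochberg over 18377 genes, 0 of 9 had an adjusted p under 0.05, where 6.16% of all genes did. At an unadjusted p under 0.05 there were 2 of 9, REV3L and POLK, where 18.5% of all genes were. HLTF differed by 0.06 with a 95% interval of -0.13 to 0.26 (adjusted p = 0.796 by limma), so a difference of the size seen in DLD1 lies far outside the interval.

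REV3L, the catalytic subunit of polymerase zeta, had 8.86, 8.84 and 8.99 in HCT116 mutant-only arrays, against 8.64, 8.81 and 8.74 in wild-type-only arrays. The groups did not overlap, the only such case among the 9, where 22.0% of all genes had none. The difference was 0.16 (95% interval 0.02 to 0.30, adjusted p = 0.186 by limma). POLK, a translesion polymerase that extends past bulky guanine adducts, had 8.48, 8.52 and 8.26, against 8.51, 8.65 and 8.57. It was the only gene of the 9 whose mean was lower in mutant-only cells on the deposited scale, by 0.16 (adjusted p = 0.252 by limma), and its arrays overlapped.

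For the other genes in HCT116, RAD18 had 9.36, 9.40 and 9.62 in mutant-only arrays, against 9.15, 9.39 and 9.45 in wild-type-only arrays. REV1, the deoxycytidyl transferase that scaffolds the other translesion polymerases, had 8.62, 8.79 and 8.52, against 8.30, 8.71 and 8.65. ZRANB3 had 8.90, 8.97 and 8.86, against 8.80, 9.01 and 8.69. All 3 pairs of groups overlapped, with differences of 0.13, 0.09 and 0.08. SHPRH differed by 0.12, SMARCAL1 by 0.01 and UBE2N by 0.01, and the sign of the last 2 turned with the scaling of the arrays. The largest adjusted p by limma among the 9 was 0.977, that of SMARCAL1.

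Between the lines RAD18 had the largest tested difference of the set, and it was lower in HCT116. In wild-type-only cells it averaged 9.33 ± 0.16 in HCT116 and 10.55 ± 0.08 in DLD1 (SD, n = 3), which is 2.32-fold lower in HCT116 (difference -1.21, SE 0.0851, adjusted p = 3.36e-08 by limma). In mutant-only cells it averaged 9.46 ± 0.14 in HCT116 and 10.62 ± 0.06 in DLD1, which is 2.23-fold lower (difference -1.16, adjusted p = 5.29e-08 by limma). The highest HCT116 array, at 9.62, lay below the lowest DLD1 array, at 10.48. HLTF ran the other way, 17.6-fold higher in HCT116 in wild-type-only cells (4.14) and 2.47-fold higher in mutant-only cells (1.30), values given with no test because the gene was chosen for this pattern.

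The comparison of the lines is broad, and it involves cells of different origin. Between wild-type-only cells 48.8% of all genes passed, 25.5% as lower and 23.3% as higher in HCT116, and of the 8 genes tested 4 did, 3 lower in HCT116 and 1 higher. REV3L was lower by 0.52 (adjusted p = 9.44e-06 by limma), at 8.73 ± 0.09 in HCT116 and 9.26 ± 0.09 in DLD1 (SD, n = 3). REV1 was lower by 0.40 (adjusted p = 0.00336 by limma), at 8.56 ± 0.22 in HCT116 and 8.96 ± 0.11 in DLD1 (SD, n = 3). ZRANB3 was higher by 0.24 (adjusted p = 0.00973 by limma), at 8.83 ± 0.16 in HCT116 and 8.59 ± 0.03 in DLD1 (SD, n = 3). HLTF, RAD18, REV3L, REV1 and ZRANB3 were the 5 of 9 genes whose arrays did not overlap between the lines, where 54.8% of all genes had no overlap. Since HLTF was chosen for this pattern, nothing is read from that count. UBE2N, SHPRH, SMARCAL1 and POLK did not pass, with differences of 0.01, -0.16, -0.25 and -0.08.

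Between mutant-only cells 50.6% of all genes passed, 26.3% as lower and 24.3% as higher in HCT116, and of the 8 genes tested 6 passed, all 6 lower in HCT116. REV3L was lower by 0.44 (adjusted p = 5.10e-05 by limma) and REV1 by 0.38 (adjusted p = 0.00462 by limma). POLK, at 8.42 ± 0.14 in HCT116 and 8.72 ± 0.07 in DLD1 (SD, n = 3), was lower by 0.30 (adjusted p = 0.00237 by limma). RAD18, REV1 and REV3L were therefore lower in HCT116 in both genotypes. ZRANB3, the one gene higher in wild-type-only HCT116 cells, differed by 0.10 in mutant-only cells (adjusted p = 0.287 by limma), and UBE2N by 0.01. All but UBE2N were free of overlap between the lines, 8 of 9 genes, where 57.8% of all genes were. HLTF is among these 8 and was chosen for this pattern, and no excess was tested, so nothing is read from the count.

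The calls of SMARCAL1 and SHPRH were less stable. SMARCAL1 was lower by 0.39 in mutant-only HCT116 cells (adjusted p = 0.0277 by limma), and its adjusted p was 0.0834 without HCT116 mutant-only replicate 1, 0.120 without replicate 2 and 0.125 without DLD1 mutant-only replicate 3. In wild-type-only cells its adjusted p was 0.148, but 0.000645 when blocked by replicate number, 0.0349 without HCT116 wild-type-only replicate 3 and 0.00473 without the arrays numbered 3, which were its highest in every group. SHPRH was lower by 0.28 in mutant-only HCT116 cells (adjusted p = 0.0317 by limma). Without HCT116 mutant-only replicate 1 or 3, or DLD1 mutant-only replicate 2 or 3, that p was 0.0966, 0.0937, 0.127 and 0.0680. In wild-type-only cells the p of SHPRH was 0.222, and 0.0437 without DLD1 wild-type-only replicate 3.

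The wider pathway was described with 110 further genes in 5 lists, of which 101 were measured: modification and loading of PCNA, DNA polymerases and their partners, fork remodelling and recombination, the ATR checkpoint, and the SNF2 family of ATPases to which HLTF, SHPRH, SMARCAL1 and ZRANB3 belong. Between wild-type-only cells 14 of 101 were higher in HCT116 and 71 lower, which is 84.2%, where 48.8% of all genes passed. Between mutant-only cells 14 were higher and 69 lower, which is 82.2%, where 50.6% of all genes passed. Of all genes 25.5% passed as lower and 23.3% as higher in wild-type-only cells, and 26.3% and 24.3% in mutant-only cells. With genes of low mean level left out, 7335 of 11026 genes passed in wild-type-only and 7541 of 11026 in mutant-only cells, a higher background. These shares are also the background for the counts per list below, and no excess over them was tested. The median difference was -0.48 in wild-type-only and -0.54 in mutant-only cells, where that of all genes was 0.0039 and 0.0082.

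PCNA itself was 2.01-fold lower in HCT116 in wild-type-only cells (-1.01, adjusted p = 2.00e-08 by limma). USP1, which removes ubiquitin from PCNA, was lower by 1.19, ATAD5, which unloads PCNA, by 1.45, and DTL, a substrate receptor of the CRL4 ubiquitin ligase, by 1.32, in the same cells. The list of PCNA modification and loading had 1 higher and 12 lower of 20. Among the polymerases and partners 6 were higher and 7 lower of 13: POLD3, a subunit shared by polymerases delta and zeta, was 3.31-fold lower (-1.73), POLQ 2.84-fold lower, the primase-polymerase PRIMPOL by 1.43 and POLN by 0.93. In HCT116 wild-type-only cells POLQ averaged 7.08 and PRIMPOL 6.99, within the range of the leukocyte markers. The size of the differences of POLQ and PRIMPOL is therefore uncertain. The 6 higher genes, POLI, POLL, POLM, POLB, MAD2L2 and POLD4, were higher by 0.30 to 0.50. In mutant-only cells 6 of this list were higher and 6 lower, with a median difference of 0.14.

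CLSPN, the adaptor of checkpoint signalling at forks, was 3.91-fold lower in wild-type-only HCT116 cells (-1.97), the exonuclease EXO1 3.05-fold (-1.61), the BRCA1 partner BARD1 2.41-fold (-1.27) and the helicase RECQL 2.38-fold (-1.25). In that list 3 were higher and 26 lower of 32. Of those 3, RADX was 2.88-fold higher (1.52, adjusted p = 1.18e-08 by limma). Its DLD1 wild-type-only level of 5.70 lay within the range of the leukocyte markers. Of 10 ATR checkpoint genes 9 were lower, among them CDC25A by 1.56, TOPBP1 by 1.11, ATR by 1.04 and RAD1 by 0.84. The largest adjusted p among the lower genes named from these 4 lists was 3.96e-07 by limma, that of POLQ. In mutant-only cells these lower genes were again lower in HCT116, PCNA by 1.03, POLD3 by 2.05, CLSPN by 2.25 and CDC25A by 1.88.

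Of the 26 SNF2 genes 4 were higher and 17 lower in wild-type-only HCT116 cells, with SMARCA1 standing apart. SMARCA1, the ATPase of the NURF remodeller, averaged 10.26 ± 0.05 in HCT116 and 5.80 ± 0.11 in DLD1 wild-type-only cells (SD, n = 3), a difference of 4.46 (adjusted p = 4.15e-14 by limma). In mutant-only cells it averaged 10.35 ± 0.17 in HCT116 and 5.56 ± 0.09 in DLD1 (SD, n = 3). Both DLD1 levels lay within the range of the leukocyte markers, so it is not known how far they were above background, and no direction within DLD1 is read from them. SMARCA2 was lower by 1.23 in wild-type-only HCT116 cells, RAD54L2 by 0.88 and SMARCA4 by 0.82. A list of 22 proliferation genes moved with the line difference: 19 were lower in HCT116 in wild-type-only and 19 in mutant-only cells, with medians of -0.66 and -0.67, and their part in the results on the pathway was not tested.

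**Figure D3:**
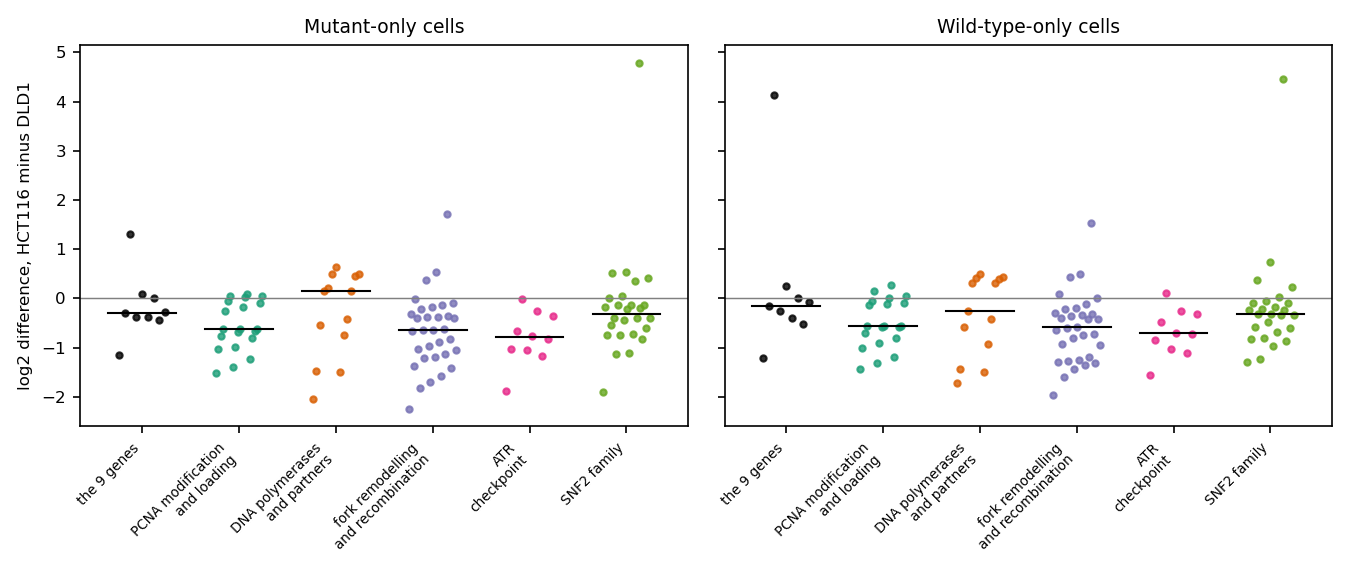
Differences in log2 level, HCT116 minus DLD1 (vertical axis), in mutant-only cells on the left and wild-type-only cells on the right, for the 9 genes and for the 5 pathway lists. Points are genes and bars are medians. Most points lie below 0, HLTF is the highest of the 9, and SMARCA1 is the highest of the SNF2 family at 4.79 in mutant-only and 4.46 in wild-type-only cells.

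Within the lines few pathway genes passed. In HCT116 4 of 101 were higher in mutant-only cells and 0 lower (3.96%, where 4.02% of all genes passed as higher and 2.14% as lower), a share close to that of all genes. In DLD1 9 were higher and 0 lower, which is 8.91%. Of all genes 8.77% passed, 5.66% as higher and 3.11% as lower, so the share passing in either direction was close to that of all genes. With genes of low mean level left out, 1449 of 11026 genes passed in DLD1, a higher background, and no excess was tested. With the replicate number as a block, the counts were 10 in HCT116, 9 of them higher, and 19 in DLD1, 17 of them higher. The block raised the counts over all 18377 genes too, from 1132 to 1808 in HCT116 and from 1612 to 2482 in DLD1. Without the arrays numbered 3 the count in DLD1 was 4, where 995 of all genes passed.

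In HCT116 CHD9, a chromodomain helicase, was 1.83-fold higher at 9.71 ± 0.06 in mutant-only and 8.84 ± 0.13 in wild-type-only cells (SD, n = 3, difference 0.87, adjusted p = 4.03e-06 by limma). POLH, the polymerase that passes ultraviolet lesions, was higher by 0.38 (adjusted p = 0.0211 by limma), ATRX by 0.34 (adjusted p = 0.0141 by limma) and CHD4 by 0.20 (adjusted p = 0.0263 by limma). The call of CHD9 held in every alternative tried. That of POLH ended when replicate 1 of the wild-type-only group, or replicate 2 or 3 of the mutant-only group, was left out (adjusted p 0.0604 to 0.0866). That of ATRX ended without mutant-only replicate 1 or 3 (0.0589 and 0.05004). CHD4 ended without replicates 1 or 3 of either genotype (0.0726 to 0.0905), without the arrays numbered 3 (0.131) and with median centring (0.0516). All 3 calls ended when the HCT116 groups were fitted alone (0.0636 to 0.0935).

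In DLD1 SMARCA2, the BRM ATPase of SWI/SNF, was 1.58-fold higher at 9.84 ± 0.13 in mutant-only and 9.18 ± 0.03 in wild-type-only cells (SD, n = 3, difference 0.66, adjusted p = 0.000689 by limma). POLD3 was higher by 0.33 (adjusted p = 0.00951 by limma). Both calls held in every alternative tried. The helicase BLM was higher by 0.50 (adjusted p = 0.0116 by limma, 0.0507 without wild-type-only replicate 3 and 0.0880 without the arrays numbered 3). TIPIN, of the fork protection complex, was higher by 0.30 (adjusted p = 0.00498 by limma, 0.0681 without the arrays numbered 3). RPA2, of the single-strand binding complex, was higher by 0.31 (adjusted p = 0.0158 by limma, 0.0768 without wild-type-only replicate 1, 0.0750 without mutant-only replicate 1, and 0.0553 when the arrays numbered 3 were left out).

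The other 4 calls in DLD1 were the clamp loader subunit RFC2 (0.22), PARPBP (0.31), MAD2L2, the accessory subunit of polymerase zeta (0.20), and the repair polymerase POLB (0.20), with adjusted p from 0.0300 to 0.0491 by limma. Each ended with another scaling of the arrays: RFC2 and PARPBP with quantile normalization, median centring and cyclic loess (adjusted p 0.0545 to 0.121 and 0.0591 to 0.0763), and MAD2L2 and POLB with quantile normalization (0.173 and 0.123) and cyclic loess (0.139 and 0.112). RFC2, MAD2L2 and POLB also ended with the DLD1 groups fitted alone (0.0575 to 0.0819), and PARPBP and POLB without the arrays numbered 3 (0.288 and 0.123). Each ended as well without any 1 of several arrays. For RFC2 these were HCT116 mutant-only replicate 1, all 3 DLD1 wild-type-only arrays and DLD1 mutant-only replicates 1 and 2 (adjusted p 0.0518 to 0.142). For PARPBP they were replicate 3 of both HCT116 groups and all 6 DLD1 arrays (0.0549 to 0.150). For MAD2L2 they were all 3 DLD1 wild-type-only arrays and DLD1 mutant-only replicates 1 and 2 (0.0565 to 0.111). For POLB they were HCT116 wild-type-only replicate 1, all 3 HCT116 mutant-only arrays, and replicates 1 and 2 of DLD1 wild-type-only and 1 and 3 of DLD1 mutant-only cells (0.0520 to 0.171). Of the proliferation genes 1 of 22 passed in DLD1, the cyclin gene CCNE1, higher by 0.27 (adjusted p = 0.0285 by limma, and 0.0614 to 0.0991 without any 1 of 5 DLD1 arrays, all but wild-type-only replicate 1), and 0 in HCT116. The call of CCNE1 also ended with quantile normalization (0.0925), cyclic loess (0.0641) and without the arrays numbered 3 (0.161).

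The genes next to HLTF on chromosome 3 were compared to see how far its difference in DLD1 extended along the chromosome. The 8 measured genes on each side, in the order of the GRCh38.p14 gene table, ran from PLSCR2 to GYG1 before HLTF and from HPS3 to RNF13 after it. Their differences in DLD1 lay between -0.53 and 0.26, where that of HLTF was 2.90. In both DLD1 groups PLSCR2, ZIC4, ZIC1, AGTR1, CPB1, CPA3, CP, TM4SF18 and TM4SF4 averaged between 5.06 and 6.56, within the range of the leukocyte markers. It is not known how far these levels were above background, so nothing is read from the small differences of these genes. GYG1, a glycogen primer and the gene adjacent to HLTF, was higher at 10.84 ± 0.06 in mutant-only and 10.59 ± 0.03 in wild-type-only cells (SD, n = 3, difference 0.26, adjusted p = 0.00743 by limma), and its adjusted p was 0.0506 without the arrays numbered 3.

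HPS3, the adjacent gene on the other side, differed by 0.10 in DLD1 (adjusted p = 0.546 by limma). WWTR1, the transcriptional coactivator TAZ, was lower at 7.19 ± 0.04 in DLD1 mutant-only and 7.72 ± 0.07 in DLD1 wild-type-only cells (SD, n = 3, difference -0.53, adjusted p = 0.000413 by limma). These were the 2 of 16 neighbours that passed in DLD1, where 8.77% of all genes did. In HCT116 2 of 16 passed as well, where 6.16% of all genes did, and from neither count is anything read. There the phospholipid scramblase PLSCR1 was lower by 0.40 (adjusted p = 0.00349 by limma) and TM4SF18, a tetraspan membrane protein, by 0.28 (adjusted p = 0.0234 by limma). The HCT116 levels of TM4SF18, 5.62 in mutant-only and 5.90 in wild-type-only cells, lay within the range of the leukocyte markers. With the replicate block 4 of 16 passed in HCT116, where 1808 of all 18377 genes did. Without the arrays numbered 3, where 774 of all genes passed, none of the 16 did with limma, at adjusted p of 0.0516 for PLSCR1 and 0.114 for TM4SF18. The call of TM4SF18 also ended without any 1 of 5 HCT116 arrays, all but wild-type-only replicate 2 (0.0581 to 0.0841).

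**Figure D4:**
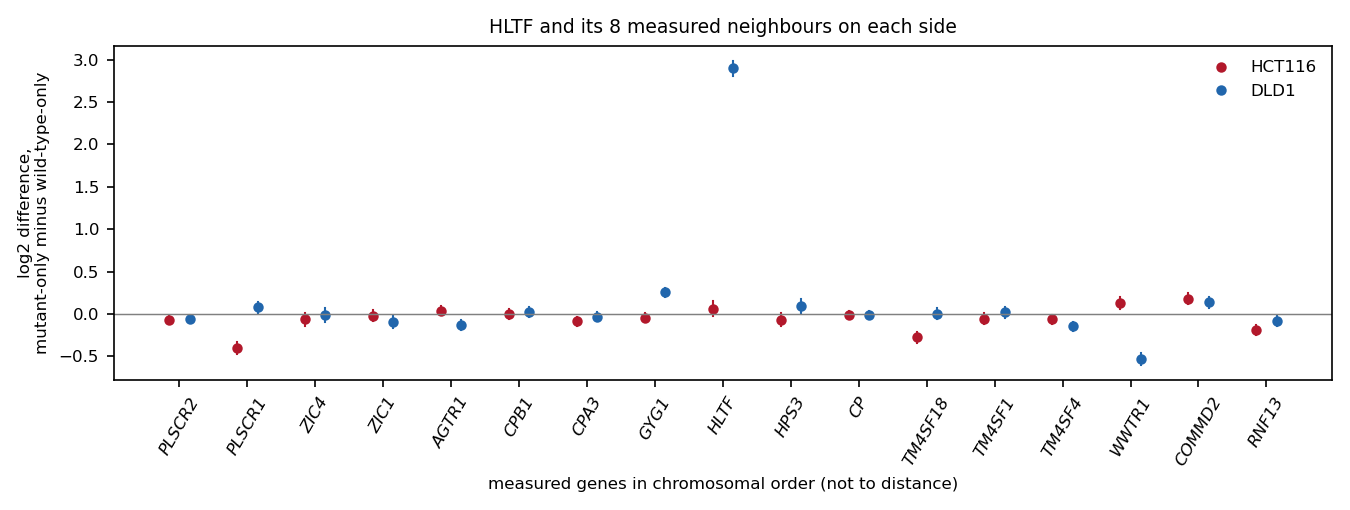
Differences in log2 level, mutant-only minus wild-type-only (vertical axis), for HLTF and the 8 measured genes on each side in chromosomal order, not spaced by distance. Points are differences, lines are plus and minus 1 SE of the limma fit, red is HCT116 and blue is DLD1. HLTF in DLD1 stands at 2.90 and the 16 neighbours in DLD1 lie between -0.53 and 0.26, among them genes with dim levels in both DLD1 groups.

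The genes most like HLTF over the 12 arrays were found by the root-mean-square difference between log2 levels, each gene first centred on its own mean. This measure was 1.71 for HLTF against a flat profile. SH3BGRL on chromosome X, a small protein with a thioredoxin-like fold, came first by a wide margin at 0.188, and in no array did the centred levels differ by more than 0.407. Its arrays had 12.13, 12.08 and 12.08 in HCT116 mutant-only and 11.99, 11.99 and 12.21 in HCT116 wild-type-only cells. In DLD1 they had 10.63, 10.69 and 10.98 in mutant-only cells, against 8.18, 8.15 and 8.58 in wild-type-only cells. The difference was 2.46 in DLD1 and 0.03 in HCT116, the same order of groups as for HLTF, with overlapping HCT116 arrays. ZRANB3 had that order of means too, at 8.91, 8.83, 8.81 and 8.59, over a far smaller range. So did UBE2N, whose means of 10.48, 10.47, 10.46 and 10.46 were nearly flat.

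Next came EEF1A2, a tissue-restricted translation elongation factor, at 0.682, the phospholipase PLA2G4A at 0.699, SRPX at 0.773, the collagen chaperone FKBP10 at 0.811 and ZFAND4 at 0.861. Their differences in DLD1 were smaller, from 0.64 for ZFAND4 to 1.13 for SRPX. In DLD1 mutant-only and wild-type-only cells PLA2G4A averaged 6.21 and 5.25, and ZFAND4 6.44 and 5.80, within the range of the leukocyte markers. How far those levels lay above background is not known, so the size of these 2 differences is uncertain. EEF1A2, PLA2G4A, SRPX, FKBP10 and ZFAND4 lie on chromosomes 20, 1, X, 17 and 10, and none on chromosome 3. On this measure, which depends on the size of differences as well as their order, none of the 8 other damage tolerance genes came near. Their values ran from 1.59 for ZRANB3 to 2.20 for RAD18, beside 1.71 for a flat profile. The 12 arrays share their groups and lines, so likeness over them is a description and carries no p. SH3BGRL came first with each of the 4 other scalings or summaries tried. The authors' deposited table for DLD1, with the same group means as here, lists SH3BGRL with a fold of 5.50, SRPX with 2.18 and EEF1A2 with 2.02, all higher in mutant-only cells.

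**Figure D5:**
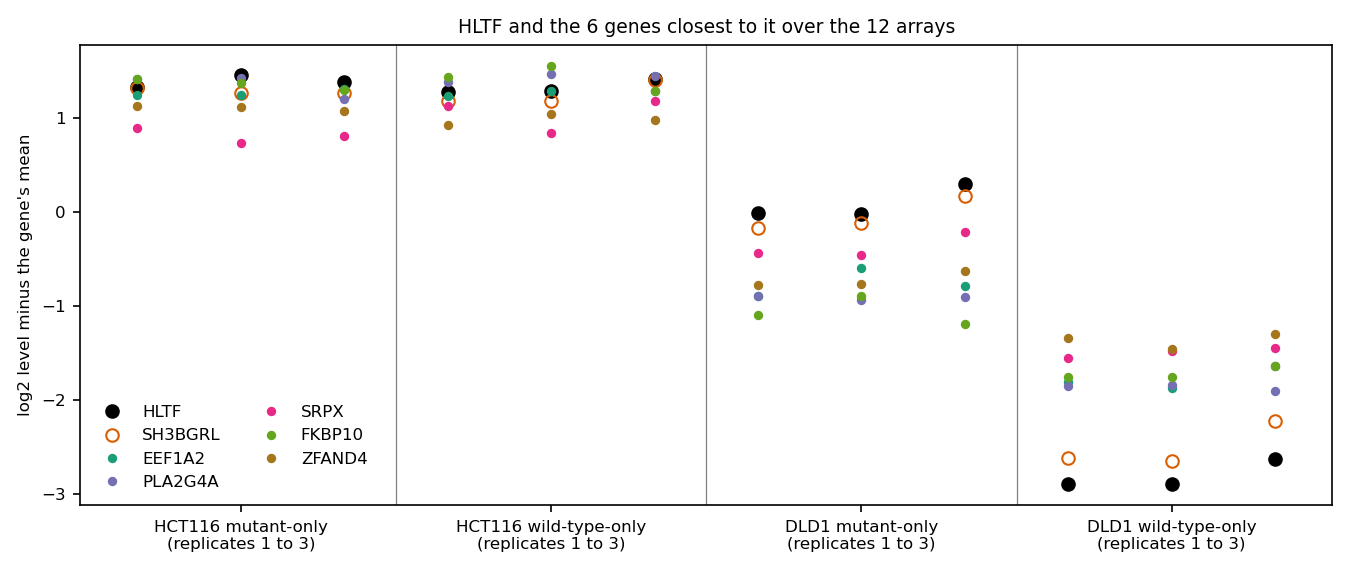
Log2 level minus the gene's own mean over the 12 arrays (vertical axis) for HLTF and the 6 genes closest to it, with arrays in the order HCT116 mutant-only, HCT116 wild-type-only, DLD1 mutant-only and DLD1 wild-type-only, replicates 1 to 3 in each. Each point is 1 array. The open points of SH3BGRL lie within 0.407 of the filled points of HLTF on every array, and the other 5 genes fall less far in DLD1 wild-type-only cells. PLA2G4A and ZFAND4 had dim levels there, at 5.25 and 5.80.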

How the data were processed

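Total RNA, 500 ng per sample per the labels, was measured on 12 Affymetrix HuGene arrays. The log2 values that the authors deposited cover 28869 transcript clusters. How these were background-corrected, summarised and normalized is not given in the sources used here. The authors also deposited selected-cluster tables with an unadjusted p-value, an absolute fold ratio of at least 2 and log2 group values, on annotation for hg19 per the file headers. Their group columns were assigned to groups because they equal the group means here to within 1.33e-06.

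Of the clusters 19310 had 1 gene symbol, 1752 several and 7807 none here, and only the first kind was used. The cluster with the highest mean was kept for 685 genes with more than 1, which left 18377 genes. Group means over all 12 arrays were fitted with limma 3.58.1 in R 4.3.3 (lmFit, eBayes, 8 residual and 5.17 prior degrees of freedom). Two-sided p-values were adjusted by Benjamini-Hochberg over all genes, and a gene passed at 0.05. The fit was run on simulated data with known differences and with errors independent between arrays. That simulation held no effect shared by same-numbered arrays, so it does not show how such an effect changes the p-values. The number of arrays limits the precision, since 3 against 3 arrays allow no exact two-sided p below 0.1.

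The 9 genes and the lists were chosen with earlier results of these data known. The text names all 9 genes, up to 4 called genes of lowest adjusted p per list and comparison, the 8 measured neighbours of HLTF on each side and the 6 genes most like it. RADX and the polymerase genes higher in HCT116 were named in addition. Sequences came from RefSeq promoters on GRCh38.p14, matched by symbol for 9 of 9 genes. That assembly's gene table gave names and gene order, and no array coordinates are printed because the builds differ. The labels give array numbers without saying that they pair. Deviations of same-numbered arrays of one line correlated by 0.129 to 0.462 in all 6 pairs, and those of the same genotype between lines by 0.114 to 0.407 in all 6, so fits with the replicate number as a block were run, within line for differences within a line. Over all 12 same-numbered pairs between lines, 11 were over 0.1 and the lowest was 0.0657. The alternatives are in the closing section. Levels of the targeted gene are not reported here.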

Additional observations from a re-analysis of the deposited data

Results flagged for a closer look

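The differences within the lines were themselves compared for the 14 named list genes that passed in one line, as the DLD1 difference minus the HCT116 difference in the same limma fit, adjusted over all 18377 genes, of which 7.11% passed. Of the 14, 3 passed. Choosing genes that passed in one line and not in the other favours a difference between the lines, so this count is not read against that share. SMARCA2 had a difference of 0.66 in DLD1 and -0.02 in HCT116, which differ by 0.68 (adjusted p = 0.00730 by limma). TIPIN had 0.30 in DLD1 and -0.11 in HCT116, which differ by 0.42 (adjusted p = 0.00632 by limma). CHD9 had 0.23 in DLD1 and 0.87 in HCT116, which differ by -0.64 (adjusted p = 0.00112 by limma). For the other 11 genes the lines were not shown to differ, POLD3 (0.33, adjusted p = 0.0635 by limma) and POLH (-0.40, adjusted p = 0.0762 by limma) among them. This comparison was added after the data had been seen, and no explanation for it was tested.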

How the results depend on the processing

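The alternatives averaged a gene's clusters or used other settings: leaving out genes under the 40th percentile, quantile normalization, median centring, cyclic loess, array weights, the compared groups alone, an intensity trend with a robust prior, the replicate block and leaving out each array. Leaving out the arrays numbered 3, the block and single arrays for the neighbours, and the comparison of the 2 lines' differences were added after seeing the data. The difference of HLTF in DLD1 ran from 2.79 to 2.99 when single arrays were left out. Those of the other 8 genes in DLD1, none tested, were less stable over all alternatives: SHPRH 0.142 to 0.363, SMARCAL1 0.0509 to 0.257, RAD18 0.0202 to 0.119, REV1 0.0050 to 0.110, REV3L 0.0211 to 0.116, POLK 0.0001 to 0.0996 and ZRANB3 0.175 to 0.246. UBE2N there (0.0002) turned sign under 6 of 22 alternatives, among them quantile normalization (-0.0556), cyclic loess (-0.0493) and median centring (-0.007), and reached 0.0401 with array weights. In HCT116 none of the 9 genes passed under any alternative, and the lowest adjusted p was 0.0991 for REV3L with the replicate block. RAD18, REV3L and REV1 kept their calls between the lines in both genotypes under all alternatives, as did ZRANB3 in wild-type-only and POLK in mutant-only cells.

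The pathway genes called in DLD1 numbered 9, but 27 with array weights, where DLD1 wild-type-only replicate 1 had a weight of 6.23, 19 with the replicate block, 4 without the arrays numbered 3, and 4 to 12 without single arrays. Of all 18377 genes 1612 passed there, but 4705 with array weights, 2482 with the block and 995 without the arrays numbered 3. In HCT116 the pathway genes called numbered 4, but 1 with the HCT116 groups alone, 10 with the block and 1 to 4 without single arrays. Of all genes 1132 passed there, but 665 with the HCT116 groups alone and 1808 with the block. Neighbours called in DLD1 numbered 2, 1 without the arrays numbered 3 and 2 to 2 without single arrays. In HCT116 they numbered 2, 4 with the block, 0 without the arrays numbered 3 and 1 to 2 without single arrays. The cause of these changes was not tested, and the fits that leave arrays out also have fewer samples.

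Signs turned only for differences that did not pass. SMARCAL1 in HCT116 (0.01) was -0.0368 with array weights, -0.0221 with cyclic loess, -0.0046 with median centring, -0.0275 with quantile normalization and -0.113 to 0.140 without single arrays. REV1 in HCT116 (0.09) was -0.0397 without wild-type-only replicate 1, and up to 0.165 without other arrays. UBE2N in HCT116 (0.01) was -0.0283 with cyclic loess, -0.0128 with median centring, -0.0174 with quantile normalization and -0.0263 to 0.0293 without single arrays. UBE2N between wild-type-only lines (0.01) was -0.0163 with median centring and -0.0229 to 0.0385 without single arrays. Between mutant-only lines (0.01) it was -0.0221 with median centring and -0.0040 to 0.0357 without single arrays, while it passed as higher with quantile normalization (0.14, adjusted p = 0.0273 by limma) and cyclic loess (0.12, adjusted p = 0.0497 by limma). SMARCAL1 between mutant-only lines missed the threshold with quantile normalization (adjusted p = 0.0693 by limma) and cyclic loess (0.0641), and between wild-type-only lines it passed with the replicate block (0.000645). SHPRH between mutant-only lines missed it without the arrays numbered 3 (0.108).

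Signal over background was not assessed, so how far dim levels, such as that of HLTF in DLD1 wild-type-only cells, can be read is limited.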
